A study of Homo sapiens with 37 samples.

Results

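A group of 10 genes of classical DNA end joining was followed across 37 K562 libraries. The genes were named by function, but with earlier results of these data known, and all 10 had a row among the 32055 genes of the count table. The cell line, K562, is a long-established human leukemia line that the study uses as a model of erythroid differentiation. In 26 libraries, labelled KO, ZBTB7A had been targeted with Cas9 and a plasmid carrying a gRNA, and in 11 libraries, labelled Control, the cells had received the vector without a gRNA. According to the study's methods single cells were sorted and expanded into clones, but a label holds a barcode and a group and nothing on the clone or gRNA, so some libraries of a group may come from the same clone. RNA was measured by bulk SCRB-seq, in which poly(A) RNA is sequenced from its 3′ end and a random tag (unique molecular identifier, UMI) lets each captured molecule be counted once.

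End joining seals a DNA double-strand break without a template. The ring-shaped Ku heterodimer of XRCC6 (Ku70) and XRCC5 (Ku80) slides onto the broken end and recruits PRKDC, the DNA-dependent protein kinase catalytic subunit, the nuclease DCLRE1C (Artemis) trims the ends, the polymerases POLL and POLM fill gaps, and XRCC4, NHEJ1 (XLF) and the ligase LIG4 join the strands. TP53BP1 (53BP1) binds chromatin around the break and protects the ends from resection, which steers repair away from homologous recombination. The same proteins complete V(D)J recombination in lymphocytes, and ZBTB7A, a zinc finger repressor of blood cells, is known to take part in end joining as a protein. The comparison sets the RNA of these factors in ZBTB7A KO cells against that in Control cells.

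Of the 10 genes, 9 had enough UMIs to be tested, and 4 of these passed the test. NHEJ1 and PRKDC were higher in the KO libraries, and XRCC4 and POLL were lower. Of all 10661 genes tested, 33.8% passed at the same threshold (17.7% higher and 16.2% lower), so 4 of 9 was close to the share of all genes. The median log2 fold change of the 9 genes was -0.07, beside -0.0046 over all tested genes. None of the 9 also exceeded an absolute log2 fold change of 0.5, which 10.2% of the tested genes did, and in none of them were the KO and Control libraries without overlap, which was so in 0.281% of the tested genes. Here and in what follows a gene passed when its adjusted p was below 0.05 in edgeR's quasi-likelihood test with Benjamini-Hochberg adjustment over all genes tested, and levels are in log2 CPM, that is, UMI counts scaled to library size after TMM normalization.

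**Figure D1:**
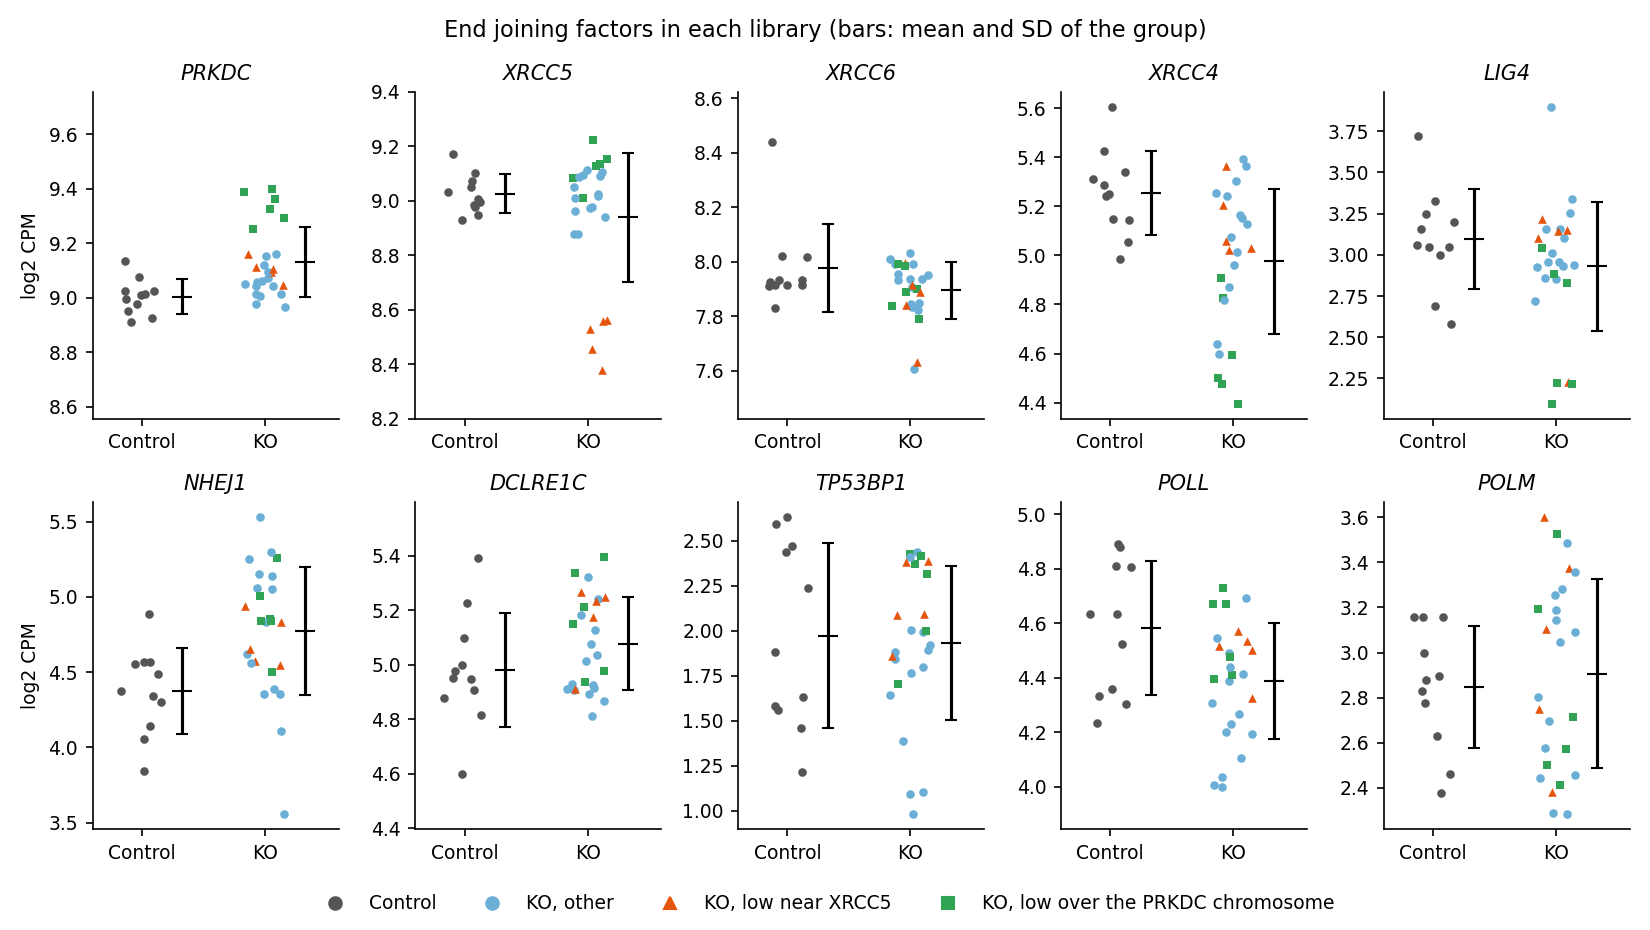
Level of each end joining factor (vertical axis, log2 CPM, scaled separately for each gene) in the 11 Control and 26 KO libraries, with 1 point per library and bars for the mean and SD of each group. Triangles mark the 5 KO libraries with low levels of the genes around XRCC5, which are also the 5 lowest in XRCC5, and squares mark the 6 KO libraries with low levels over the chromosome of PRKDC, which are the 6 highest in PRKDC and all lie below the Control libraries in XRCC4.

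Total UMIs ranged from 563235 to 4710809 in the Control libraries and from 1070250 to 4270901 in the KO libraries. The median total was 3.52e+06 in Control and 2.03e+06 in KO, so the KO libraries were shallower at the median. Raw UMI ranges of the groups given below are to be read with this difference. Barcodes rich in G and C belonged to 12 KO libraries but to 1 Control library, so each result was also computed among the 12 KO and 8 Control libraries with AT-rich barcodes. The targeted gene itself, ZBTB7A, had a log2 fold change of 0.12 (SE 0.09, edgeR adjusted p = 0.331), which did not pass. It passed as higher in KO with surrogate variables (0.20, adjusted p = 0.0103), without 6 KO libraries low over chromosome 8 that are described below (0.21, adjusted p = 0.0428) and without these and 5 others low near XRCC5 (0.28, adjusted p = 0.00942). The RNA of the targeted gene thus gives no check of the KO label, since 3′ counts do not show whether its coding sequence was edited. The study itself examined ZBTB7A in its clones by Western blot and Sanger sequencing, but no label ties a library to a clone. The labelled cell line showed its erythroid transcripts: 9 of the 10 K562 markers were tested, and they summed to 2884 to 9423 CPM in the KO and 3953 to 8688 CPM in the Control libraries. Of these 9 markers, 2 were higher in KO and 3 lower. EPOR, the erythropoietin receptor, rose by 0.97 on the log2 scale (edgeR adjusted p = 1.795e-08) and TFRC, the transferrin receptor, fell by 0.37 (adjusted p = 1.508e-05), both passing among AT-rich barcodes too, where the other 3 did not pass. The part of these differences in the results for the end joining factors was not tested. Of 6 granulocyte and monocyte markers only 2 had a row, LYZ and CD14, which summed to at most 2.6 CPM in any library. This sum therefore holds none of the granule genes MPO, ELANE, PRTN3 and AZU1. RAG1 and RAG2, the V(D)J recombinase, summed to at most 5 UMIs in any library. Stromal markers summed to at most 7.4 CPM. Lymphocyte markers summed to 1.4 to 30.3 CPM in KO and 16.5 to 73.6 CPM in Control, mostly CD3D, which was lower in KO (log2 fold change -1.85, edgeR adjusted p = 4.087e-06), while CD2, CD3E and CD79A had at most 2 UMIs in any library. All libraries are of the K562 line, so these markers describe RNA of this line and not a mix of blood cell types. Whether all cells of a library or only a part of them held less CD3D RNA cannot be told in bulk RNA.

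A pair of sets of KO libraries stood apart along chromosomes that carry end joining genes, and they were noticed after the values had been seen. For each library, the log2 CPM of every tested gene with a mean of at least 10 CPM was taken relative to the Control mean, and the median over neighbouring genes was computed without the end joining gene itself. For the 51 genes within 10 Mb of XRCC5 this median lay between -0.49 and -0.38 in 5 KO libraries (named with their XRCC5 levels below), against -0.09 to 0.13 in the other 21 KO libraries and -0.07 to 0.05 in the Control libraries. The 553 genes farther away on chromosome 2 lay between -0.06 and -0.03 in these 5 libraries. For PRKDC the low levels extended over the chromosome: the 239 genes more than 10 Mb away on chromosome 8 had a median between -0.52 and -0.48 in 6 KO libraries, against -0.04 to 0.05 in the other 20 KO and -0.03 to 0.04 in the Control libraries. Over the 7683 genes on chromosomes other than 2 and 8, the median stayed between -0.01 and 0.02 in every library. Around the members on other chromosomes it stayed between -0.20 and 0.19 in every KO library. Values without these libraries are given for each tested member and for the other named genes whose call depended on them.

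PRKDC (ENSG00000253729, chr8:47773111-47960178 of GRCh38, minus strand, 86 exons in its main transcript) was together with XRCC5 the most abundant of the 10 factors, with 286 to 2384 UMIs per library. Its level was lowest at 8.91, 9.01 at the median and highest at 9.13 in the Control libraries, and 8.97, 9.10 and 9.40 in the KO libraries. The groups overlapped, with 9 KO libraries above the highest Control library and none below the lowest. KO exceeded Control by a log2 fold change of 0.13 (SE 0.043, edgeR adjusted p = 0.0170) or 9.4%. The 6 KO libraries low over chromosome 8 were the 6 highest in PRKDC. TAAGAT was at 9.40, CCCTGG at 9.39, ATCAAA at 9.36, TTAGTT at 9.33, ATTACT at 9.29 and TGTTTA at 9.25. The other 20 were at 9.16 or less, and 3 of these lay above the highest Control library. Without the 6 libraries the log2 fold change was 0.07 (SE 0.03, edgeR adjusted p = 0.0968). Since they hold the highest PRKDC values, leaving them out was bound to lower the log2 fold change. Without the 5 libraries low near XRCC5 it was 0.15 (adjusted p = 0.0153).

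MCM4, a subunit of the replicative helicase, starts 7 bases from PRKDC and is read in the opposite direction, and it was looked at for this position after the values had been seen. In KO its mean level was 8.69 ± 0.19 (SD, n = 26), against 8.42 ± 0.09 (SD, n = 11) for Control, and 17 KO libraries lay above the highest Control library. This is a log2 fold change of 0.28 (SE 0.059, edgeR adjusted p = 0.000289). The 6 libraries highest in PRKDC were also the 6 highest in MCM4, at 8.92 to 9.08 against at most 8.84 in the other KO libraries, so both genes of this pair were high where the chromosome around them was low. Unlike PRKDC, MCM4 still passed without these libraries (log2 fold change 0.19, edgeR adjusted p = 0.000513).

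**Figure D2:**
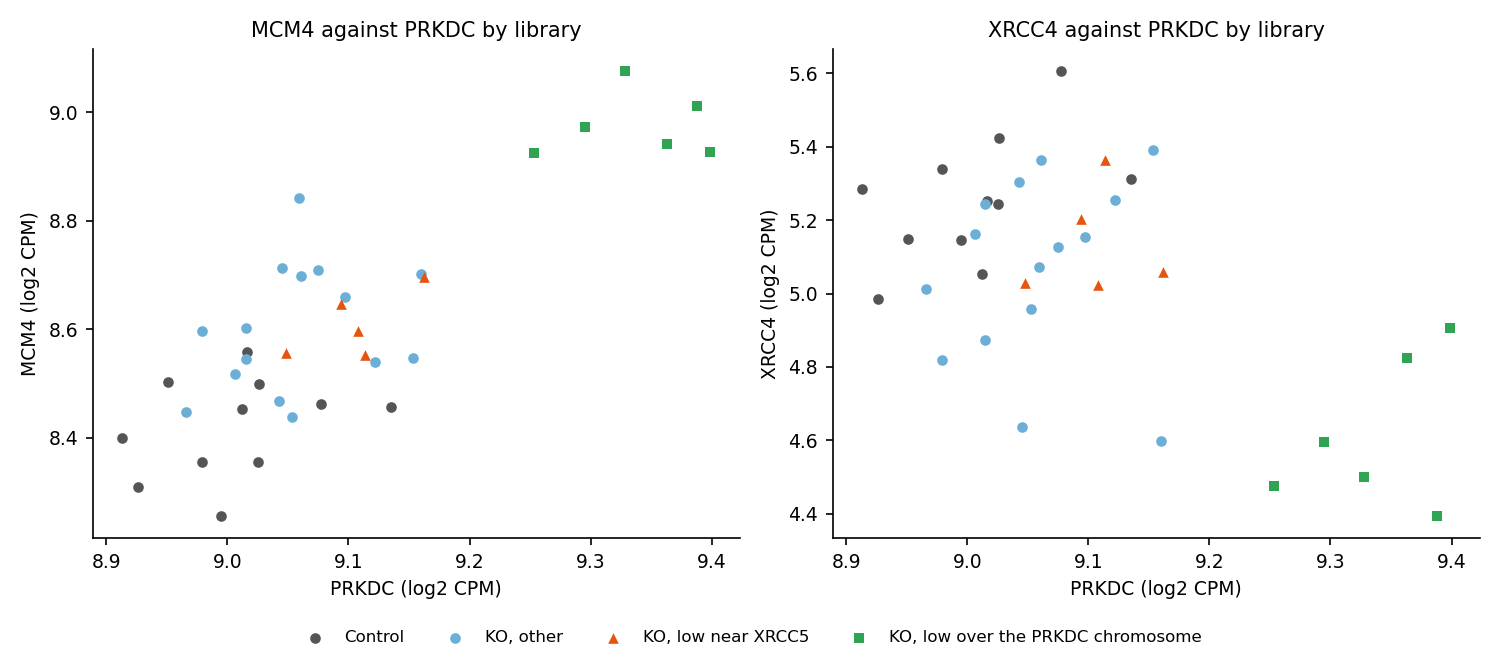
MCM4 (left) and XRCC4 (right) against PRKDC, all in log2 CPM, with 1 point per library. The 6 KO libraries low over the PRKDC chromosome (squares) are the highest in PRKDC and in MCM4, and lie between 4.39 and 4.91 in XRCC4, below the lowest Control library at 4.99.

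The Ku subunits did not pass. XRCC5 (ENSG00000079246, chr2:216107464-216206303, plus strand) was at 8.93, 9.01 and 9.17 (lowest, median, highest) in Control and at 8.38, 9.02 and 9.22 in KO. The medians were nearly equal, but the KO libraries spread far below: GGCGTC was at 8.38, TAATGA at 8.46, CCCCGT at 8.53, CCAACC at 8.56 and TAAAGT at 8.56, and the other 21 were at 8.88 or more. These are the 5 libraries in which the neighbouring genes were low as well. The SD of XRCC5 was 3.32 times as large in KO as in Control, a ratio above that of 97.95% of the tested genes, whose median ratio was 1.25. The log2 fold change was -0.07 (SE 0.067, 95% interval -0.20 to 0.06, edgeR adjusted p = 0.444). Without the 5 libraries it was 0.03 (adjusted p = 0.587), and among AT-rich barcodes 0.01 (adjusted p = 0.963).

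XRCC6 (ENSG00000196419, chr22:41621163-41664048, plus strand) was lower than its partner in RNA. It ranged from 7.83 over 7.93 at the median to 8.44 in Control and from 7.61 over 7.91 to 8.03 in KO. The highest value belonged to GTTTAT, the shallowest Control library, and the remaining libraries of both groups overlapped closely. The log2 fold change was -0.08 (SE 0.045, 95% interval -0.16 to 0.01, edgeR adjusted p = 0.184), and -0.04 (adjusted p = 0.489) without GTTTAT. Without either or both sets of libraries that stood apart it lay between -0.08 and -0.06 and did not pass. XRCC5 had 2.07 times the CPM of XRCC6 in both groups (geometric mean over libraries), although the Ku proteins act as a pair. The log2 ratio of PRKDC to XRCC5 was -0.02 ± 0.07 (SD, n = 11) in Control but 0.19 ± 0.24 (SD, n = 26) in KO, and its highest KO value, 0.73, came where XRCC5 was lowest.

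In the ligation complex, XRCC4 and NHEJ1 passed in opposite directions and LIG4 did not pass. The 250 bases before the RefSeq starts of XRCC4, NHEJ1 and POLL, the 3 called members on chromosomes other than 8, are shown here because they differ in GACCC, the core of the sites that ZBTB7A is known to bind. Capitals mark GACCC or its reverse complement GGGTC.
XRCC4, chr5:83077297-83077546, plus strand: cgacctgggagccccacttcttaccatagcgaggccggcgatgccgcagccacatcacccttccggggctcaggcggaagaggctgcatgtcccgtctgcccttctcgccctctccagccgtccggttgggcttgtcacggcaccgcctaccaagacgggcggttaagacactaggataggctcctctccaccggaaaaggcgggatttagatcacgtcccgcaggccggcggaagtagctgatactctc
NHEJ1, chr2:219160816-219161065, minus strand: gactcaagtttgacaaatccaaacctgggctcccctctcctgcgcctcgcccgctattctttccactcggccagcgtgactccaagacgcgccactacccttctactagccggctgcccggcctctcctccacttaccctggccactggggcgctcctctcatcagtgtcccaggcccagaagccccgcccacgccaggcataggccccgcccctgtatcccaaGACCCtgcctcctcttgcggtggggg
POLL, chr10:101588271-101588520, minus strand: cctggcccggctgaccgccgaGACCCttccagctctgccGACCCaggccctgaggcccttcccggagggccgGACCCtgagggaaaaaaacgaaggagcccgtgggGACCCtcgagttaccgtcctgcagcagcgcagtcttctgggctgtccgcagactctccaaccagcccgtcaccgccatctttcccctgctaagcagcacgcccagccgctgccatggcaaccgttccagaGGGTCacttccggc
The sequences are RefSeq promoters of GRCh38.p14, printed 5′ to 3′ on the strand of the gene. The search also covered the 50 bases after each start, on both strands, and CTTCCCC as another sequence. Matches are given for 1 window per gene, although there were 5 windows for LIG4 and 2 each for NHEJ1, DCLRE1C and POLL. In these windows of 300 bases GACCC had 5 matches at POLL, 3 at POLM, 2 at TP53BP1, 1 at NHEJ1 and none at XRCC6, XRCC4, LIG4 and DCLRE1C. Of all 35116 windows, 47.56% held at least 1 match and 0.393% held 5 or more. CTTCCCC was found at POLL alone, beyond the printed bases, and in 12.96% of all windows. These letters are a description of the windows and not a measurement of binding.

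NHEJ1 (ENSG00000187736, chr2:219069355-219160869), which encodes XLF and bridges the ends together with XRCC4, changed most among the members. It was at 3.85, 4.37 and 4.89 (lowest, median, highest) in Control and at 3.56, 4.84 and 5.53 in KO, from 16 to 132 UMIs per library. Above every Control library lay 10 KO libraries, and GGCCAC, the lowest of all, lay below. This gave a log2 fold change of 0.46 (SE 0.131, edgeR adjusted p = 0.00640), a rise of 37.2%. It held among AT-rich barcodes (0.44, adjusted p = 0.00866), without GGCCAC (0.49, adjusted p = 0.00123) and without both sets of libraries that stood apart (0.46, adjusted p = 0.0328). NHEJ1 lies within 10 Mb of XRCC5, and the 45 genes within that distance of NHEJ1 were also low, between -0.49 and -0.40, in the 5 libraries named above. In these 5, NHEJ1 itself was at 4.55 to 4.94, above the Control median. The 3′ end of NHEJ1 overlaps a long noncoding RNA on the other strand that has no row of its own among the counts. How strand entered the counting is not stated.

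XRCC4 (ENSG00000152422, chr5:83077498-83353787), the scaffold that holds the ligase, was at 4.99, 5.25 and 5.61 in Control and at 4.39, 5.03 and 5.39 in KO. Below the lowest Control library lay 11 KO libraries, and none lay above the highest. KO differed from Control by a log2 fold change of -0.25 (SE 0.088, edgeR adjusted p = 0.0245), so that Control was 1.19 times as high. All 6 libraries low over chromosome 8 were among these 11, at 4.39 to 4.91, and the other 5 were found among the 20 remaining KO libraries. Without the 6 libraries the log2 fold change was -0.16 (SE 0.076, edgeR adjusted p = 0.105). The genes around XRCC4 on chromosome 5 had median deviations of -0.102 to -0.034 in these libraries, beside -0.075 to 0.065 in the Control libraries, so they were not low as on chromosome 8. The adjusted p also rose above 0.05 among AT-rich barcodes (-0.26, adjusted p = 0.0821) and when either Control library ATATAG (adjusted p = 0.0529) or GGGATT (adjusted p = 0.0752) was left out.

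LIG4 (ENSG00000174405, chr13:108207439-108218368), the ligase, was at a mean of 3.10 ± 0.30 (SD, n = 11) in Control against 2.93 ± 0.39 (SD, n = 26) in KO, from 4 to 43 UMIs per library. Its log2 fold change of -0.16 (SE 0.137, 95% interval -0.43 to 0.11, edgeR adjusted p = 0.392) did not pass, and at this depth a change of the size of that of XRCC4 lay within the interval. Without the 6 libraries low over chromosome 8 it was -0.07 (adjusted p = 0.730), and without both sets that stood apart -0.05 (adjusted p = 0.835). LIG4 had 0.222 times the CPM of XRCC4 in KO and 0.208 times in Control (geometric means).

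Among the enzymes that prepare the ends, POLL alone passed. POLL (ENSG00000166169, chr10:101578882-101588270), which fills gaps opposite a template, was at 4.23, 4.63 and 4.89 (lowest, median, highest) in Control and at 4.0, 4.41 and 4.73 in KO. Below every Control library lay 7 KO libraries and above them none, and 19 lay within the Control range. The log2 fold change was -0.24 (SE 0.083, edgeR adjusted p = 0.0236), so that Control was 1.18 times as high. The 6 libraries low over chromosome 8 were at 4.39 to 4.73 and none of them was among the 7. Without them the log2 fold change was -0.29 (adjusted p = 0.00949), and without both sets that stood apart -0.35 (adjusted p = 0.00574). Among AT-rich barcodes it was of like size but did not pass (-0.29, adjusted p = 0.0746), and the adjusted p rose above 0.05 when 1 Control library was left out in 4 cases, to 0.0719 without TTAATC, to 0.0572 without ATATAG, to 0.0577 without ATGAAT and to 0.0518 without TACTAT. The last exons of POLL overlap DPCD on the other strand, whose log2 fold change was -0.22 (SE 0.108, edgeR adjusted p = 0.106), so reads of these genes may not be told apart.

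POLM (ENSG00000122678, chr7:44072062-44082530), which can extend ends that are not paired, was low in all libraries (3 to 36 UMIs) and spread widely in KO: 9 KO libraries lay above the highest Control library and 2 below the lowest. Its log2 fold change was 0.09 (SE 0.149, 95% interval -0.20 to 0.38, edgeR adjusted p = 0.689), and 0.04 (adjusted p = 0.938) without the 5 libraries low near XRCC5. DCLRE1C (ENSG00000152457, chr10:14897359-14954432), the nuclease that also opens hairpins in V(D)J recombination, was at 5.08 ± 0.17 in the KO libraries (SD, n = 26), with the Control libraries at 4.98 ± 0.21 (SD, n = 11). Its log2 fold change was 0.08 (SE 0.068, 95% interval -0.06 to 0.21, edgeR adjusted p = 0.413), and 25 of the 26 KO libraries lay within the Control range. Without both sets of libraries that stood apart it was 0.01 (adjusted p = 0.990).

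TP53BP1 (ENSG00000067369, chr15:43403061-43510728) was below the count filter, with 3 to 24 UMIs per library, so 1 molecule weighed heavily in each value. The Control libraries were at 1.97 ± 0.51 (SD, n = 11) and the KO libraries at 1.93 ± 0.43 (SD, n = 26), with 23 of 26 KO libraries inside the Control range. With no filter beyond 1 count in all, the log2 fold change was -0.12 (edgeR adjusted p = 0.763). A difference was not detectable at this depth. The 3′ end of TP53BP1 overlaps TUBGCP4, a protein-coding gene on the other strand with 23.3 UMIs per library on average, so reads of these genes may not be told apart either.

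**Figure D3:**
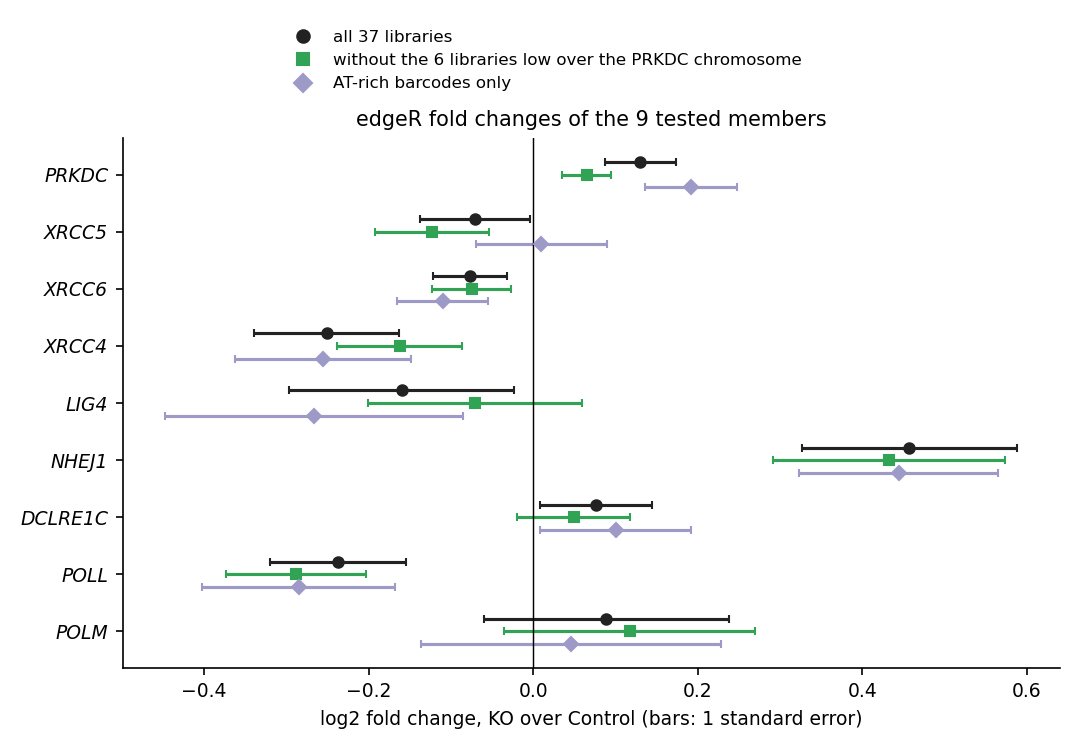
Log2 fold change of KO over Control for the 9 tested end joining factors, with bars of 1 standard error, in all 37 libraries (circles), without the 6 libraries low over the PRKDC chromosome (squares) and in the 20 libraries with AT-rich barcodes (diamonds). NHEJ1 and POLL keep their size in all 3 fits, while PRKDC falls from 0.13 to 0.07 and XRCC4 moves from -0.25 to -0.16 without the 6 libraries.

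The factors fell into 3 tiers of abundance. A UMI count at the 3′ end does not grow with transcript length, although genes can still differ in how well they are primed and mapped. PRKDC (548 ± 50.4 CPM, SD over 37 libraries) and XRCC5 (504 ± 64.2 CPM) were highest and overlapped, followed by XRCC6 (242 ± 22.9 CPM). XRCC4 (33.2 ± 6.5 CPM), DCLRE1C (32.6 ± 4.3 CPM), NHEJ1 (25.5 ± 7.6 CPM) and POLL (21.3 ± 3.6 CPM) formed the middle tier, in which neighbours overlapped within 1 SD. LIG4 (7.4 ± 2.1 CPM) and POLM (6.9 ± 2.0 CPM) were low and not separated from each other, and TP53BP1 (3.2 ± 1.2 CPM) was lowest.

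The members did not vary together from library to library. Over the 36 pairs of the 9 tested factors the median Pearson r, after subtracting group means, was -0.09 over 37 libraries. It ranged from -0.52 for PRKDC and LIG4 to 0.31 for XRCC4 and LIG4. Over the 26 libraries that remain without both sets that stood apart, these 2 pairs were at -0.02 and -0.08. There the median was -0.03, and the range was from -0.40 for LIG4 and NHEJ1 to 0.29 for XRCC5 and XRCC4. For the 2 members with the smallest adjusted p, the tested genes most like them were sought by the same measure over 37 libraries. NHEJ1 was most like IL2RG (r = 0.75), STK10 (r = 0.75) and LIN28A (r = 0.73), and without the 6 libraries low over chromosome 8 these values were 0.74, 0.79 and 0.75 over 31 libraries. PRKDC was most like FUCA1, LMAN2 and PODXL (r = 0.84 each). Without the 6 libraries, which hold the highest PRKDC values, these were 0.48, 0.33 and -0.06. These values are descriptions, since the libraries share depth and possibly clones.

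PRKDC was not the only member whose start faces another gene, and these neighbours were chosen by position after the values had been seen. TP53BP1 starts 230 bases from MAP1A, a microtubule-associated protein, and MAP1A rose in KO with a log2 fold change of 1.01 (SE 0.13, edgeR adjusted p = 7.833e-08), with 24 KO libraries above every Control library. XRCC6 starts 120 bases from DESI1, a desumoylating isopeptidase, which fell by 0.33 on the log2 scale (SE 0.054, edgeR adjusted p = 5.429e-06), with 23 KO libraries below every Control library. TP53BP1 and XRCC6 themselves did not pass. TMEM167A, whose start overlaps that of XRCC4 by 365 bases, was higher in KO (0.14, edgeR adjusted p = 0.0273) where XRCC4 was lower, a call lost without the Control library AAGATT (adjusted p = 0.0638) or ATGAAT (adjusted p = 0.0621). It was also lost without the 5 libraries low near XRCC5 (adjusted p = 0.0599), without both sets that stood apart (adjusted p = 0.0613), among AT-rich barcodes (adjusted p = 0.0731), with every gene of at least 1 count (adjusted p = 0.130) and after thinning (adjusted p = 0.187). ABHD13, 24 bases from LIG4, was at 0.04 (edgeR adjusted p = 0.703).

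The wider repair machinery was described from lists of related genes. Of 10 other end joining and accessory factors tested, 9 did not pass, and APLF, a histone chaperone that binds Ku, was lower (log2 fold change -0.69, SE 0.26, edgeR adjusted p = 0.0379), at 0 to 17 UMIs in KO and 4 to 28 in Control. This call was lost when any 1 of 7 libraries was left out (adjusted p between 0.0501 and 0.0776) and without the 6 libraries low over chromosome 8 (adjusted p = 0.0795). In break signaling and the effectors of 53BP1, 4 of 15 genes were higher and 3 lower, which is 46.67% beside the 33.8% of all tested genes. MDC1, which reads phosphorylated H2AX, rose by 0.57 (SE 0.161, adjusted p = 0.00537), ATM, the kinase that signals breaks, by 0.38 (SE 0.092, adjusted p = 0.00133) and NUDT16L1, an inhibitor of 53BP1, by 0.20 (SE 0.06, adjusted p = 0.00777), each on the log2 scale in edgeR. MDC1 had only 0 to 20 UMIs per library and did not pass among AT-rich barcodes (0.52, edgeR adjusted p = 0.0706). NBN fell by 0.27, SHLD2, a shieldin subunit that acts below 53BP1, fell by 0.27, and RAD50 fell by 0.23 (edgeR adjusted p = 0.0266, 0.0107 and 0.000159). SHLD2 did not pass without both sets of libraries that stood apart (-0.23, adjusted p = 0.0817) or after thinning (adjusted p = 0.490). NBN and RAD50 belong with the nuclease MRE11 to the complex that senses and trims broken ends, and MRE11 was at 0.06 (SE 0.063, edgeR adjusted p = 0.511), although it passed as higher without both sets (0.15, adjusted p = 0.0342). NBN lies on chromosome 8 like PRKDC and did not pass without the 6 libraries low there (-0.15, adjusted p = 0.0858), among AT-rich barcodes (-0.31, adjusted p = 0.0987) or without the Control library CGGTGG (adjusted p = 0.0794).

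In alternative end joining, 1 of 7 genes was higher, the flap nuclease FEN1 (0.10, edgeR adjusted p = 0.0158, and 0.0541 without the 6 libraries low over chromosome 8), and none was lower. In homologous recombination 1 of 18 was higher, RAD51AP1 (0.26, adjusted p = 0.00121), and 2 were lower, XRCC2 (-0.31, adjusted p = 0.00161) and RAD51C (-0.20, adjusted p = 0.00222, and 0.0690 among AT-rich barcodes). Over these 4 lists together, 12 of 50 tested genes passed, 6 in each direction, a smaller share than the 33.8% of all tested genes; that gap was not tested. Replication and cell cycle genes, given because PRKDC shares its start with a replication gene, had 2 of 15 higher, MCM4 and TYMS (0.26, edgeR adjusted p = 0.00390), and 1 lower, CCNB1 (-0.24, adjusted p = 0.00376, but 0.0795 without both sets that stood apart and 0.0616 among AT-rich barcodes). The list medians lay between -0.05 and 0.06, and called genes of both directions stood in 3 of the 5 lists.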

How the data were processed

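According to the labels and the study's methods, RNA of K562 cells was sequenced by a bulk SCRB-seq protocol. The authors mapped the reads to hg38 and deposited UMI counts per Ensembl gene for 37 libraries without normalization. The submitters' processing notes name STAR 2.6.0a, and the version of zUMIs is not given in the sources used here. Whether counting used strand is not stated. Libraries were grouped by their titles, and each count column was matched to its title by its barcode. Symbols (31323 of 32055 identifiers) and positions came from GENCODE release 44, and promoters, matched for 8 of the 10 members, from RefSeq.

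The main test was edgeR 4.0.16 in R 4.3.3: filterByExpr with its defaults, TMM, a robust quasi-likelihood fit of the group alone, and Benjamini-Hochberg adjustment over 10661 genes. Log2 CPM used a prior count of 2, the SE was derived from the log2 fold change and its F statistic (their quotient with the root of F), and 95% intervals are 1.96 SE wide on each side. The common biological coefficient of variation was 0.154. No pair among 380 pairs of libraries within a group agreed within counting noise (chi-square test, smallest ratio to degrees of freedom 1.14, p = 3.31e-23), so none were merged. Since nothing ties libraries to separate cultures, p-values measure the spread between these libraries, which may be technical. Counts and intervals cover captured molecules.

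The members and lists were chosen with earlier results of these data known. All 10 members are named, with the genes of each related list that passed (at most 3 with the largest change in each direction), ZBTB7A, and the 3 genes most like each of the 2 members with the smallest adjusted p. Genes facing a member's start, CD3D, EPOR, TFRC, MRE11 and TUBGCP4 were named after their values were seen. Alternatives were other tests (limma-voom of limma 3.58.1, DESeq2 1.42.0), other scaling (RLE, or library size alone), other filters (1 count in all, or 10 CPM on average), the barcode class as a covariate or a restriction to AT-rich barcodes, 7 surrogate variables (sva 3.50.0), thinning to 563235 UMIs, each library left out, and stricter thresholds. Leaving out the libraries that stood apart along chromosomes 2 and 8 (median deviation below -0.3) was added after seeing the data. The fits were tested on simulated counts. DNTT, SHLD3, RAD51D, HBE1, MPO, ELANE, PRTN3, AZU1 and MS4A1 were not analysed here.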

Additional observations from a re-analysis of the deposited data

How the results depend on the processing

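NHEJ1 passed in 12 of 13 alternative fits, the exception being thinning every library to 563235 UMIs, where its log2 fold change was 0.26 (edgeR adjusted p = 0.279), and it passed whichever library was left out (0.42 to 0.49). Of the 2 members higher in KO, 1 passed with every gene of at least 1 count, without the libraries low over chromosome 8, without both sets that stood apart and at an adjusted p below 0.01, and 0 after thinning or with a fold threshold of 0.5 added. PRKDC passed whichever 1 library was left out. Of the 2 members lower in KO, 1 passed with barcode class as covariate, with every gene of at least 1 count, with library size alone, without the libraries low over chromosome 8 and without both sets, 0 among AT-rich barcodes, after thinning, with the fold threshold or at 0.01, and 0 to 2 when 1 library was left out. Surrogate variables gave 3, adding XRCC5 (-0.09, adjusted p = 0.00876). Thinning also lowered the calls among all genes from 1882 to 865 higher and from 1724 to 775 lower. Discarding counts is bound to lower the number of calls, so thinning cannot show what limits them at full depth.

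XRCC5 changed sign among AT-rich barcodes (0.01) and without the 5 libraries low near it (0.028), and POLM with surrogate variables (-0.037), none of them passing. For the 2 replication genes higher in KO, 4 passed in DESeq2, 5 among AT-rich barcodes, with barcode class as covariate, with library size alone and without the 5 libraries low near XRCC5, 6 with surrogate variables, and 2 to 4 when 1 library was left out, while the 1 lower gene became 0 among AT-rich barcodes and without both sets. Among other end joining factors, APLF no longer passed (0 lower) with every gene of at least 1 count, library size alone, or without the 6 libraries low over chromosome 8 or both sets; at a mean of at least 10 CPM, after thinning and without the 5 libraries it was removed by the filter and not tested (0 lower there too), and leaving out 1 library gave 0 to 1. There, 1 gene was higher without the 6 libraries low over chromosome 8 and 2 without both sets. In break signaling 1 gene was higher after thinning instead of 4. In alternative end joining 0 were higher with every gene of at least 1 count, without the 6 libraries and without both sets, and 2 with library size alone or surrogate variables, and leaving out 1 library gave 0 to 1 lower. In homologous recombination 2 were higher among AT-rich barcodes, with barcode class, with library size alone and without the 5 libraries, and 0 after thinning, while 1 instead of 2 was lower among AT-rich barcodes and after thinning. The causes were not tested. No paired analysis was possible because the labels carry no replicate number that would tie a KO to a Control library.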
